A study of Mus musculus with 1376 samples.

Results

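RGS proteins, the regulators of G protein signalling, were followed here through 9 genes of mouse lung, namely Rgs2, Rgs3, Rgs4, Rgs5, Rgs6, Rgs7bp, Rgs10, Rgs12 and Rgs16, out of 46517 genes in the deposited count table. They were chosen by gene name from a given list. Rgs7bp encodes a binding partner of RGS proteins and has no RGS domain, so the set holds 8 RGS genes and 1 partner. The cells came from ACTA2GFP:CSPG4dsRED mice, whose strain name gives a green reporter for smooth muscle actin and a red one for the proteoglycan NG2. They were sorted singly into 384-well plates and sequenced as full-length cDNA by Smart-Seq2, which uses no molecular identifiers. The study surveyed smooth muscle cells (SMC), and the lung samples used here are 1376 cells, 1 sample each. Of these, 47.5% came from male mouse 1 (2 plates), 25.6% from male mouse 2 (1 plate) and 27% from female mouse 1 (1 plate). No treatment was named, and all 3 mice carried the same strain name. The sample labels gave an age of 8 to 30 weeks. The series text gave 8 to 21 weeks and spoke of male mice only, and the extraction text named heart where the tissue label was lung. The sort gate was not given in the sources used here, and mouse, plate and, for female mouse 1, sex cannot be told apart.

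Heterotrimeric G proteins carry the signal of hormone and transmitter receptors while their alpha subunit holds GTP. RGS proteins bind the active alpha subunit and speed GTP hydrolysis, which ends the signal. In the vessel wall Rgs2 is known to restrain constrictor signals through Gq, Rgs5 is widely used as a mural cell marker, and Rgs4, Rgs5 and Rgs16 proteins are short-lived substrates of the N-degron pathway, which removes proteins with a destabilising first residue. Rgs6 belongs to the R7 group, which works as a complex with the G beta subunit Gnb5 and is tethered to membranes by the product of Rgs7bp.

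The promoters of the 4 members whose level differed among cell classes are shown. They were searched for CC and GG with any 6 bases between them, a loose form of the CArG box, the site of serum response factor, which drives many smooth muscle and early response genes. Each line holds the 250 bases before the gene start in RefSeq, build GRCm38.p6, read 5′ to 3′ on the gene's strand, with matches in capitals. The windows were chr1:144004150-144004399 on the minus strand for Rgs2, chr1:169747643-169747892 on the minus strand for Rgs4, chr1:169655251-169655500 on the plus strand for Rgs5 and chr12:82617249-82617498 on the plus strand for Rgs6.
Rgs2: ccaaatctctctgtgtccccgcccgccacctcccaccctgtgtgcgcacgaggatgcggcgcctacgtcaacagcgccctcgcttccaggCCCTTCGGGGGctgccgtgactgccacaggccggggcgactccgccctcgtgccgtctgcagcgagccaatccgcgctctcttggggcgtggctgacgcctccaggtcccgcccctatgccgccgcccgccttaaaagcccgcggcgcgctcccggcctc
Rgs4: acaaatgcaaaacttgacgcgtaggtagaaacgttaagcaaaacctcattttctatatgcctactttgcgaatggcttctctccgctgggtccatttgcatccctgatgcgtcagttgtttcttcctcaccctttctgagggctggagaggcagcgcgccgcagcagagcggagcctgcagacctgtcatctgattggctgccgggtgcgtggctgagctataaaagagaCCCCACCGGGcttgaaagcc
Rgs5: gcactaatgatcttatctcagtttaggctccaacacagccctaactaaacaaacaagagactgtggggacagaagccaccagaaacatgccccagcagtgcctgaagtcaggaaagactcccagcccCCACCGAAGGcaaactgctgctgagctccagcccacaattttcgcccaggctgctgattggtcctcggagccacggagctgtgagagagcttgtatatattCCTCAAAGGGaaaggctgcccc
Rgs6: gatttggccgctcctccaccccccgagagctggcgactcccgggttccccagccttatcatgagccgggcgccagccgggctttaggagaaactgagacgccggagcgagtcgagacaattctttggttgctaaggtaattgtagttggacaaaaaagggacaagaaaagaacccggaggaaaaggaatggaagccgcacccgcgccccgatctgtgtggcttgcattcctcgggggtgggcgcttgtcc
All 9 members matched an entry by symbol. Rgs2 and Rgs5 held 2 matches each (those of Rgs2 overlap), Rgs4 held 1 and Rgs6 held 0. The Rgs6 window lies inside the gene span given below (chr12:82588292-83162056), so it precedes the RefSeq start and not the start of that span. The pattern reads the same on both strands and was present in 67.1% of 32851 promoters of this length, so its presence does not set these genes apart. The strict CArG box was found in 0 of the 9 members' windows and in 1.47% of all. The Rgs2 window had a GC content of 72.4%, against 53.6% for Rgs4 and for Rgs5 and a median of 52.4% over all promoters.

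Cells were grouped by clustering on genes that included none of the members, and clusters were named, with the ending -like, from markers of which none was a member. The 6 classes with at least 10 cells in each mouse were vascular SMC-like (36.6% of all cells), airway SMC-like (83 cells), pericyte-like (72 cells; pericytes wrap capillaries), alveolar myofibroblast-like (100 cells), alveolar fibroblast-like (11.4% of all cells) and adventitial fibroblast-like (73 cells). A further 66 endothelial-like cells, 65 of them from female mouse 1, and 63 macrophage-like cells, 59 of them from male mouse 1, could not be tested, and 18.8% of the cells were unnamed. Counts per cell ran from 50835 to 1074103, and counts summed per class and mouse from 2405414 to 82851245. Pericyte-like cells numbered 16, 12 and 44 and airway SMC-like cells 42, 12 and 29 in the first and the second male mouse and the female one. Among the 61 vascular SMC-like cells of female mouse 1, 28 lay in a cluster with no cell of another mouse. The 10 endothelial markers summed to 12.9 to 151.5 CPM (counts per 1e6 counts of the library) in the compared classes, against 15063 in endothelial-like cells. The 10 macrophage markers summed to 4.46 to 97.7 CPM, against 18804 in macrophage-like cells.

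Levels below are CPM of the counts summed per class and mouse, listed by mouse in that same order (males 1 and 2, then the female), with the mean ± SD of the 3 mice. Tests are edgeR's quasi-likelihood test on those sums with the mouse as a block, and a call is an adjusted p under 0.05 over 16035 genes. All 9 members passed the filter on low counts. Across the 6 classes 4 of the 9 members (Rgs2, Rgs4, Rgs5 and Rgs6) were called for any difference, against 13% of all genes tested. Rgs2 was led by airway SMC-like and alveolar myofibroblast-like cells, and Rgs4 and Rgs5 had their highest means in pericyte-like cells. In that class Rgs5 lay almost all in the cluster led by Bbox1, described below. Without male mouse 1 or without female mouse 1, 2 of these calls were left (Rgs2 and Rgs4), and without male mouse 2 there were 4 calls, with Rgs16 in place of Rgs5.

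**Figure D1:**
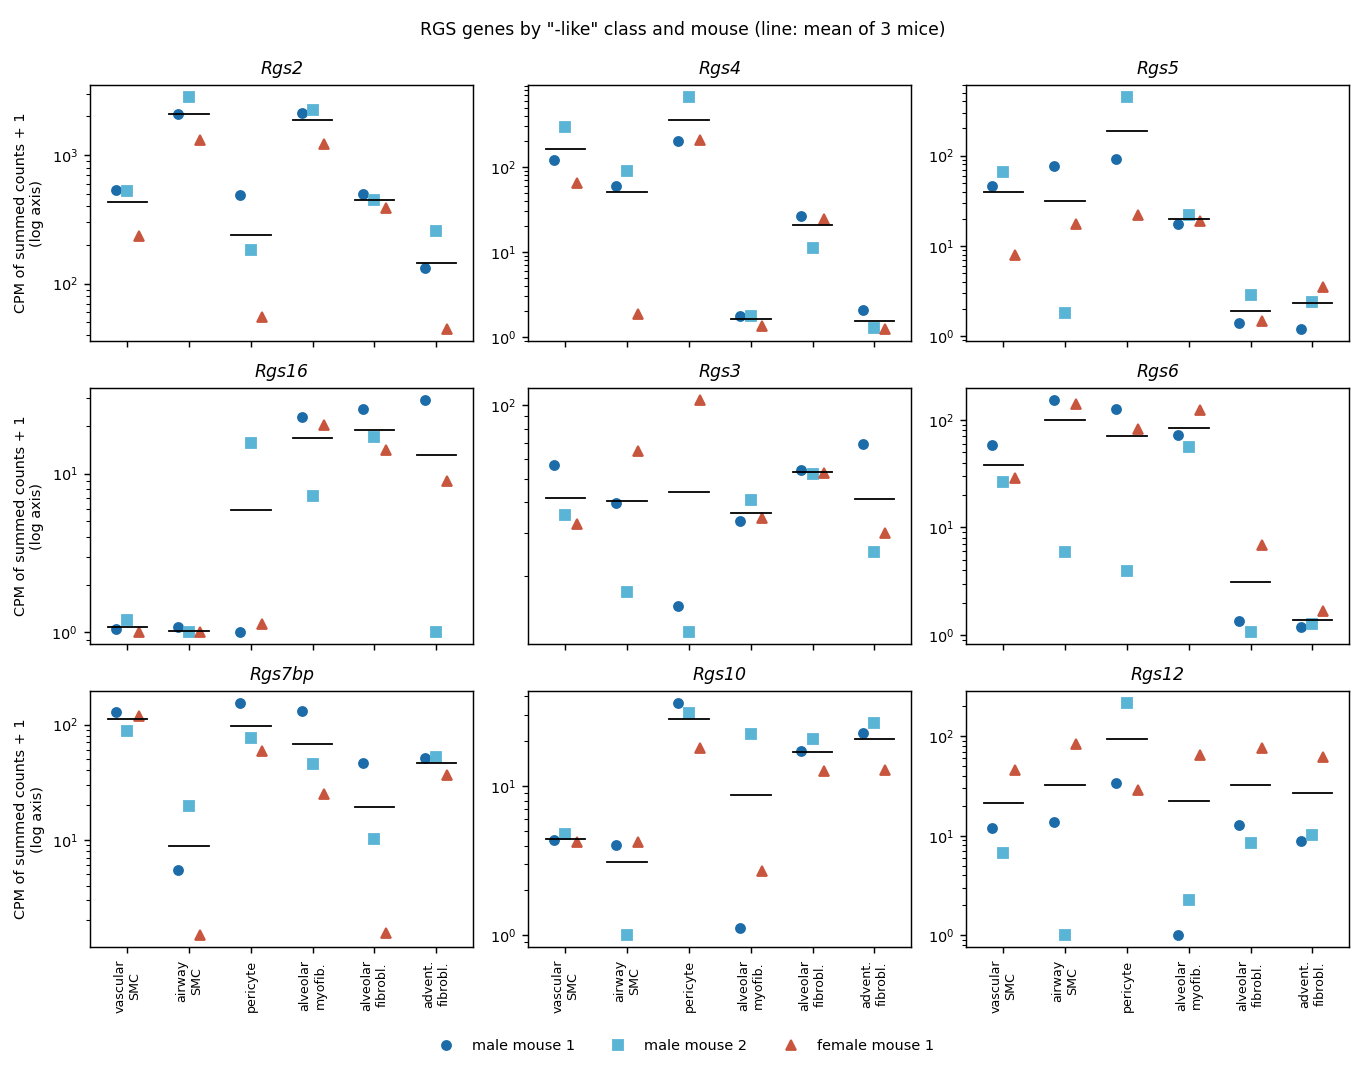
Level of each of the 9 members (CPM + 1, log axis) in the 6 compared classes, with 1 point per mouse and a line at the mean of the 3 mice. Rgs2 lay between 1214 and 2835 CPM in all airway SMC-like and alveolar myofibroblast-like sums, and Rgs4 was at or under 0.767 CPM in every alveolar myofibroblast-like sum.

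Counts of called members by comparison were small. Airway SMC-like against vascular SMC-like cells gave 1 of 9 (Rgs2, higher), with 1.9% of all genes called. Alveolar myofibroblast-like against vascular SMC-like cells gave 2 of 9 (Rgs2 higher, Rgs4 lower), with 3.72% of all genes called. Airway SMC-like against pericyte-like cells gave 1 of 9 (Rgs2, higher), with 6.23% of all genes called, so this count lies near what the table as a whole gave.

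Pericyte-like against alveolar fibroblast-like cells gave 3 of 9 (Rgs4, Rgs5 and Rgs6, all higher), with 5.69% of all genes called. Alveolar myofibroblast-like against alveolar fibroblast-like cells gave 3 of 9 (Rgs2 and Rgs6 higher, Rgs4 lower), with 2.21% of all genes called. Between the mural classes, pericyte-like against vascular SMC-like, edgeR called 0 of 9 members, with 4.52% of all genes called. There 1 member (Rgs16) had an unadjusted p under 0.05, and DESeq2 called 0. Several comparisons share a class, so their values are not independent of each other.

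**Figure D2:**
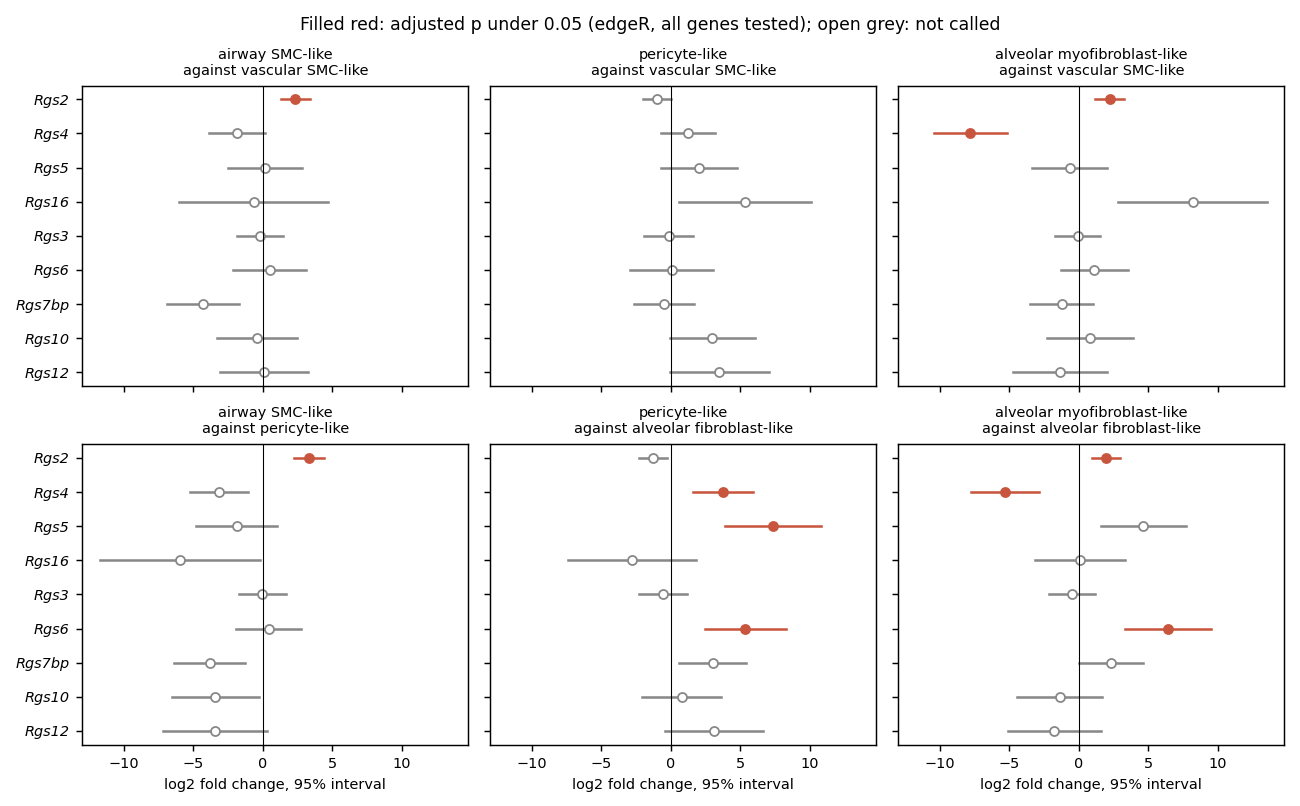
Log2 fold change of each member in the 6 comparisons with its 95% confidence interval (edgeR). Filled red points have an adjusted p under 0.05, and most other intervals include 0.

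Rgs2 was the most abundant member in 5 of the 6 classes and the only one detected in most cells everywhere. The gene (ENSMUSG00000026360, chr1:143999338-144004161, minus strand, GRCm38) is an R4 group member that acts mainly on Gq. In airway SMC-like cells its level was 2074, 2835 and 1317 CPM (2075 ± 759, SD, n = 3 mice). In alveolar myofibroblast-like cells it was 2111, 2242 and 1214 CPM (1856 ± 559.5). Vascular SMC-like cells had 538.5, 524.5 and 235.2 CPM (432.8 ± 171.2), so the lowest sum of either former class stood above the highest vascular one.

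Alveolar fibroblast-like cells had 497.7, 449.6 and 389.1 CPM (445.5 ± 54.4) and overlapped with the vascular class. Pericyte-like cells had 483.8, 181.03 and 54.3 CPM (239.7 ± 220.7), a spread of the same size as the mean. Adventitial fibroblast-like cells had 131.03, 257.8 and 43.03 CPM (143.9 ± 107.95). Of the Rgs2 counts, 5 cells held 72.1% in the pericyte-like and 59.7% in the adventitial fibroblast-like class. In all 6 classes female mouse 1 had the lowest Rgs2 level of the 3 mice. In the order of means, alveolar myofibroblast-like and alveolar fibroblast-like cells were the only neighbours whose sums did not overlap.

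The Rgs2 difference was 2.36 ± 0.48 log2 units (SE, adjusted p = 0.0183, edgeR) for airway against vascular SMC-like cells. It was 2.23 ± 0.48 (adjusted p = 0.0153) for alveolar myofibroblast-like against vascular SMC-like cells, 1.97 ± 0.47 (adjusted p = 0.0440) for alveolar myofibroblast-like against alveolar fibroblast-like cells and 3.35 ± 0.51 (adjusted p = 0.00106) for airway SMC-like against pericyte-like cells. In each mouse the first-named class was the higher one in all 4 comparisons. The last of these calls held with each mouse left out. The other 3 were lost with any 1 mouse left out, at adjusted p between 0.0723 and 0.264, while the differences stayed between 1.81 and 2.44. The first 3 were also lost without the mouse block, at adjusted p = 0.107, 0.0882 and 0.137. Between airway SMC-like and alveolar myofibroblast-like cells no comparison was planned.

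For pericyte-like against vascular SMC-like cells the Rgs2 difference was −0.99 ± 0.47 (95% interval −1.99 to 0.01, adjusted p = 0.286, edgeR). With each cell thinned to 50000 counts it was −1.28 and was called (adjusted p = 0.0393). Pericyte-like against alveolar fibroblast-like cells gave −1.25 ± 0.48 (adjusted p = 0.163, edgeR), and −1.50 on thinned cells, which was called (adjusted p = 0.0143). On the 2 plates of male mouse 1 the Rgs2 level was 556.8 and 519.4 CPM in vascular SMC-like cells, 2404 and 1821 CPM in airway SMC-like cells and 2516 and 1805 CPM in alveolar myofibroblast-like cells, so the difference was present on each plate.

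Rgs4 had its highest means in the mural classes and lay at 1.08 CPM or less in alveolar myofibroblast-like and adventitial fibroblast-like sums. The gene (ENSMUSG00000038530, chr1:169741477-169747642, minus strand) encodes a small R4 protein that acts on Gi and Gq. Pericyte-like cells had 201.6, 668 and 206.2 CPM (358.5 ± 267.9) and vascular SMC-like cells 120.8, 293.5 and 64.4 CPM (159.6 ± 119.4). The sums of these 2 classes overlapped, and their difference was 1.28 ± 0.91 (95% interval −0.67 to 3.22, adjusted p = 0.549, edgeR). Alveolar myofibroblast-like cells had 0.767, 0.757 and 0.338 CPM, or 15 counts in all, and adventitial fibroblast-like cells 1.08, 0.273 and 0.224 CPM. Alveolar fibroblast-like cells had 25.7, 10.02 and 23.4 CPM and lay between these and the mural classes in every mouse.

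Alveolar myofibroblast-like cells were thus lower in Rgs4 than vascular SMC-like cells by −7.79 ± 1.24 (adjusted p = 0.00199, edgeR) and than alveolar fibroblast-like cells by −5.31 ± 1.14 (adjusted p = 0.0228). The first call was kept without female mouse 1 and was lost without male mouse 1 (adjusted p = 0.0786) or male mouse 2 (adjusted p = 0.0705). The second was lost with any 1 mouse left out (adjusted p between 0.0775 and 0.282) and in a fit of the 2 classes alone (0.170). Pericyte-like cells were higher than alveolar fibroblast-like cells by 3.75 ± 1.01 (adjusted p = 0.0409), a call lost without male mouse 1 (adjusted p = 0.260), without male mouse 2 (0.305), at the finer clustering (0.0903) and with shallow cells removed (0.0504). Airway SMC-like cells had 58.8, 89.1 and 0.837 CPM, of which 98.8% of the counts came from 5 cells. Against pericyte-like cells the airway value was −3.14 ± 0.99 (adjusted p = 0.0814, edgeR), and DESeq2 (adjusted p = 0.0155) and thinned cells (0.0295) called it.

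Rgs5 is the neighbour of Rgs4 (ENSMUSG00000026678, chr1:169655501-169695813, plus strand). The genes lie tail to tail 45.7 kb apart with 0 annotated genes between them. Pericyte-like cells had 91.1, 447.8 and 20.8 CPM (186.6 ± 228.98), vascular SMC-like cells 44.9, 65.1 and 6.98 CPM (38.97 ± 29.5) and airway SMC-like cells 75.01, 0.810 and 16.5 CPM (30.8 ± 39.1). In pericyte-like cells 92.5% of the Rgs5 counts came from 5 cells, and in airway SMC-like cells 99.3% did. These 3 classes overlapped, and pericyte-like against vascular SMC-like cells differed by 2.03 ± 1.28 (95% interval −0.70 to 4.76, adjusted p = 0.472, edgeR). Alveolar myofibroblast-like cells had a narrower spread, with 16.6, 21.2 and 17.9 CPM (18.6 ± 2.35).

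In alveolar fibroblast-like cells Rgs5 was at 0.384, 1.88 and 0.469 CPM, or 48 counts in all, and in adventitial fibroblast-like cells at 0.181, 1.37 and 2.46 CPM. Pericyte-like cells were higher than alveolar fibroblast-like cells by 7.34 ± 1.62 (adjusted p = 0.0135, edgeR), which was lost with any 1 mouse left out (adjusted p between 0.0859 and 0.127). Alveolar myofibroblast-like against alveolar fibroblast-like cells gave 4.66 ± 1.44 (adjusted p = 0.130), and DESeq2 called it (adjusted p = 0.00526). Over the 18 sums Rgs4 and Rgs5 had a Pearson r of 0.503 on the log2(CPM + 1) scale. In vascular SMC-like cells 64 cells held counts of both, where the product of the shares of cells gives 53.6.

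Rgs16, the third N-degron substrate of the set (ENSMUSG00000026475, chr1:153740349-153745468, plus strand), was the rarest member, with 1950 counts in 57 cells. Among the compared classes its highest means lay in the fibroblast-type ones, and in pericyte-like cells it was at 0, 14.5 and 0.132 CPM. Alveolar fibroblast-like cells had 24.4, 16 and 13.1 CPM (17.8 ± 5.86), alveolar myofibroblast-like cells 21.9, 6.18 and 19.1 CPM (15.7 ± 8.38) and adventitial fibroblast-like cells 28.2, 0 and 8.05 CPM. These levels rest on few cells. Of the Rgs16 counts 5 cells held 85.6%, and 91.3%, in the first and the second of these classes, and 3 cells held all in the third. Vascular SMC-like cells had 9 counts in all and airway SMC-like cells 1 count in 83 cells. Alveolar myofibroblast-like against vascular SMC-like cells gave 8.2 ± 2.5 (adjusted p = 0.0979, edgeR), and DESeq2 (adjusted p = 0.000362) and clustering without the gene split (0.0430) called it. An antisense gene, Gm28513, overlaps exons of Rgs16, and the use of strand in counting was not given.

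Rgs3, an R4 gene with long and short isoforms (ENSMUSG00000059810, chr4:62559847-62704001, plus strand), was the flattest member. Its class means ran from 35.3 CPM in alveolar myofibroblast-like cells to 52.1 CPM in alveolar fibroblast-like cells, where the 3 mice had 53.3, 51.5 and 51.5 CPM. In pericyte-like cells female mouse 1 had 104.02 CPM against 14.1 and 10.8 in the males. In all 6 classes that mouse had the largest share of cells with a count, at 36.1% to 53.8% against 12.5% to 40.6% in the males. By level it was highest in airway SMC-like and pericyte-like cells only. Rgs3 was called in none of the 6 comparisons by edgeR or DESeq2. The 95% intervals reached from −2.29 at the lowest to 1.66 at the highest, so only differences beyond these bounds lie outside the intervals.

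Rgs6, the R7 member (ENSMUSG00000021219, chr12:82588292-83162056, plus strand), was found in muscle, mural and myofibroblast classes and at 5.89 CPM or less in the other fibroblasts. Airway SMC-like cells had 152.4, 4.86 and 138.1 CPM (98.5 ± 81.4), with the low value in the mouse that gave 12 such cells. Alveolar myofibroblast-like cells had 71.1, 54.99 and 122.4 CPM (82.8 ± 35.2), pericyte-like cells 124.6, 2.90 and 81.8 CPM (69.8 ± 61.7) and vascular SMC-like cells 56.7, 25.5 and 27.6 CPM (36.6 ± 17.4). Alveolar fibroblast-like cells had 0.336, 0.0569 and 5.89 CPM and adventitial fibroblast-like cells 0.181, 0.273 and 0.671 CPM. The former 4 classes overlapped with each other.

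Alveolar myofibroblast-like cells exceeded alveolar fibroblast-like cells in Rgs6 by 6.45 ± 1.45 (adjusted p = 0.0304, edgeR) and pericyte-like cells did by 5.37 ± 1.37 (adjusted p = 0.0315). Both calls were lost with any 1 mouse left out (adjusted p between 0.0662 and 0.306) and without the mouse block (0.120 and 0.0766). Pericyte-like cells of male mouse 1 had 368.7 CPM on 1 plate and 8.26 CPM on the other, and 85.2% of the pericyte-like counts came from 5 cells. Both calls were lost at the finer clustering (adjusted p = 0.191 and 0.289), where the differences were 4.14 and 2.67, and in fits of the 2 classes alone (0.0827 and 0.117). The first was also lost with shallow cells removed (0.0508) and the second without the gene split (0.0667). The antisense gene Gm29530 shares 77 exonic bases with Rgs6.

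Rgs7bp, the membrane anchor of the R7 group (ENSMUSG00000021719, chr13:104945904-105054930, minus strand), had its highest mean in vascular SMC-like cells, with 126.3, 86.3 and 118.2 CPM (110.2 ± 21.2). Airway SMC-like cells had 4.47, 18.6 and 0.478 CPM (7.86 ± 9.54), so the groups did not overlap. The difference was −4.29 ± 1.23 and missed edgeR's threshold (adjusted p = 0.113), while DESeq2 called it at −4.19 (adjusted p = 0.00294), as did edgeR on thinned cells (adjusted p = 0.0184). Pericyte-like cells had 153.6, 74.98 and 57.6 CPM (95.4 ± 51.1). In male mouse 1 the pericyte-like and alveolar myofibroblast-like sums lay above the vascular one. Within the pericyte-like class Rgs7bp was higher in the cluster led by Bbox1 in each mouse, as described below. Airway SMC-like against pericyte-like cells gave −3.80 ± 1.19 (adjusted p = 0.0782, edgeR), and DESeq2 (adjusted p = 0.00449), thinned cells (0.0206) and clustering without the gene split (0.0427) called it. Pericyte-like against alveolar fibroblast-like cells gave 3.03 ± 1.13 (adjusted p = 0.151, edgeR), and DESeq2 called it at 3.16 (adjusted p = 0.0342). Adventitial fibroblast-like cells had 50.1, 50.8 and 35.1 CPM, alveolar myofibroblast-like cells 130.3, 44.3 and 23.8 CPM and alveolar fibroblast-like cells 45.5, 9.05 and 0.536 CPM. Gnb5, the obligate G beta partner of the R7 group, had class means between 12.05 and 47.4 CPM, the latter in pericyte-like cells, where male mouse 1 had 141.4 CPM and the others 0 and 0.794.

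Rgs10, a small member that acts on Gi proteins and is known from microglia and other myeloid cells (ENSMUSG00000030844, chr7:128373621-128418758, minus strand), was low in muscle classes. Vascular SMC-like cells had 3.34, 3.76 and 3.21 CPM and airway SMC-like cells 3.06, 0 and 3.23 CPM. Pericyte-like cells had 35.3, 29.8 and 17.1 CPM, adventitial fibroblast-like cells 21.9, 25.4 and 11.9 CPM and alveolar fibroblast-like cells 16.2, 19.9 and 11.7 CPM. Each of these sums lay above each vascular one. The pericyte-like counts came from 12 of the 72 cells, with 88.5% of them in 5 cells. Alveolar myofibroblast-like cells had 0.128, 21.4 and 1.69 CPM. Pericyte-like against vascular SMC-like cells gave 3.0 ± 1.42 (95% interval −0.04 to 6.05, adjusted p = 0.290, edgeR), so the difference was not called. Airway SMC-like against pericyte-like cells gave −3.41 ± 1.46 (adjusted p = 0.208, edgeR), and DESeq2 called it at −3.53 (adjusted p = 0.0228).

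Rgs12, a large scaffold protein of the R12 group (ENSMUSG00000029101, chr5:34949445-35039644, plus strand), differed between mice within most classes. In 5 of the 6 classes female mouse 1 had the highest level, from 44.3 CPM in vascular SMC-like to 82.05 CPM in airway SMC-like cells, where the males had 0 to 12.8 CPM over the same 5 classes. In pericyte-like cells male mouse 2 had 215.4 CPM, against 32.99 and 27.7 CPM in the others. Rgs12 is abundant in endothelial-like cells, which came almost all from female mouse 1. The summed endothelial markers were highest in female mouse 1 in 3 of the 6 classes (pericyte-like, alveolar myofibroblast-like and adventitial fibroblast-like). Of these, the pericyte-like class is the one where Rgs12 was not highest in that mouse. The part of endothelial transcripts in the Rgs12 values was not tested. In airway SMC-like cells 5 cells held 95% of the Rgs12 counts, and in alveolar myofibroblast-like cells 5 held 96.7%. No comparison was called. The antisense gene Gm43791 overlaps exons of Rgs12 and had 1762 counts.

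Rgs2 had a count in 100% of airway SMC-like cells (exact 95% interval 95.7% to 100%) and of alveolar myofibroblast-like cells, and in 91.3% of vascular SMC-like (88.4% to 93.6%) and 79.2% of pericyte-like cells (68% to 87.8%). It also had a count in 72.7% of endothelial-like cells, at a median of 151321.5 counts per cell against 224933 in vascular SMC-like cells, so a count alone does not set a class apart. With at least 50 CPM in the cell as the threshold, chosen after seeing the data, the shares were 98.8% in airway SMC-like, 98% in alveolar myofibroblast-like, 63.6% in vascular SMC-like, 22.2% in pericyte-like and 12.1% in endothelial-like cells. The exact intervals here and below treat the cells pooled over all mice as independent, so they leave out the spread between mice. By mouse, in the order used for the levels, Rgs2 had a count in 93.8%, 50% and 81.8% of pericyte-like cells. In airway SMC-like cells the share was 100% in each mouse. Reads without molecular identifiers are not independent molecules, so a count in a cell is not a number of molecules.

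Rgs4 had a count in 50% of pericyte-like (38% to 62%) and 37.8% of vascular SMC-like cells (33.5% to 42.2%), and in 13.6% of endothelial-like cells. In the cells with a count the median level was 491.2 CPM in pericyte-like cells and 27.2 CPM in vascular SMC-like cells. At 50 CPM or more the shares were 44.4% in pericyte-like, 17.9% in vascular SMC-like, 0% of 100 alveolar myofibroblast-like and 1.52% in endothelial-like cells. The 12% of alveolar myofibroblast-like cells with any Rgs4 count is below the endothelial-like share and is read as background. Rgs5 had a count in 27.8% of pericyte-like and 28.2% of vascular SMC-like cells, against 19.7% in endothelial-like cells, and at 50 CPM or more in 12.5%, 13.5% and 4.55%.

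Rgs7bp had a count in 61.4% of vascular SMC-like cells (57% to 65.7%) and 24.1% of airway SMC-like cells (15.4% to 34.7%), against 15.2% in endothelial-like cells, and at 50 CPM or more in 44.1%, 2.41% and 0%. By mouse the vascular share was 63%, 55.4% and 70.5% and the airway share 38.1%, 8.33% and 10.3%, so the vascular share was the higher one in each mouse. Rgs6 at 50 CPM or more was found in 30.1% of airway SMC-like, 20% of alveolar myofibroblast-like, 15.5% of vascular SMC-like and 0.637% of alveolar fibroblast-like cells. A median of 2 (airway SMC-like) or 3 (all other classes) of the 9 members had a count in a cell, and no cell held more than 7.

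**Figure D3:**
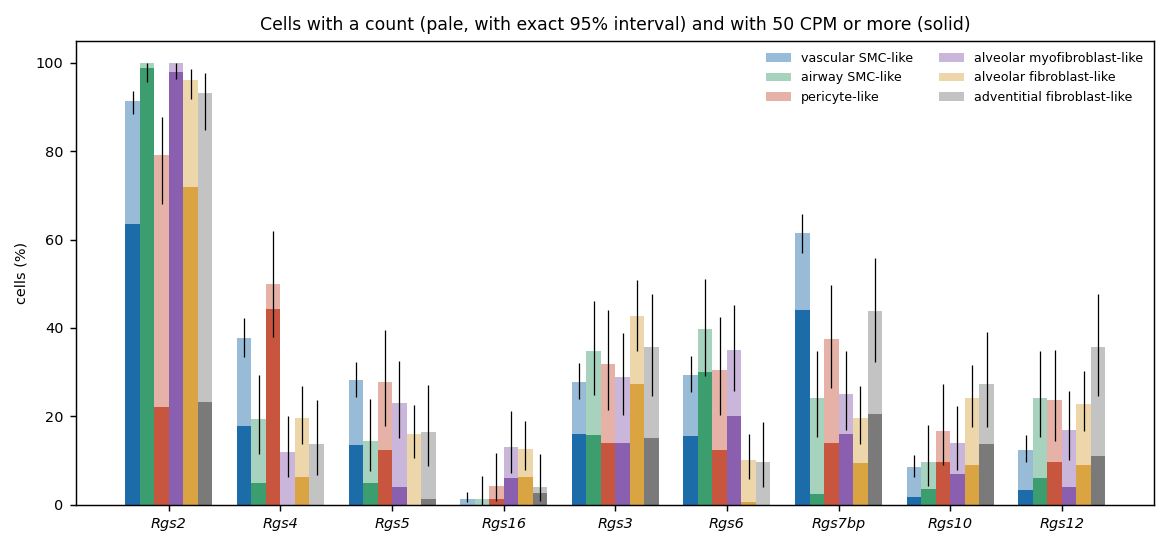
Percent of cells of each class with any count of a member (pale bars, exact 95% interval) and with at least 50 CPM (solid bars), over all mice. Rgs2 stood at 98.8% and 98% by the stricter measure in airway SMC-like and alveolar myofibroblast-like cells, and for Rgs4 the stricter share was largest in pericyte-like cells at 44.4%.

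Per kilobase of exonic length, which allows genes to be compared, the members ranked differently by class. In vascular SMC-like cells the order of mean levels was Rgs2 at 119.3 CPM per kb, Rgs4 at 51.5, Rgs7bp at 15.6 and Rgs5 at 8.57. In pericyte-like cells Rgs4 led at 115.7 CPM per kb, followed by Rgs2 at 66.1, Rgs5 at 41.04 and Rgs10 at 16.01. Rgs2 was far ahead in airway SMC-like cells at 572.1 CPM per kb, with Rgs4 next at 15.998, and in alveolar myofibroblast-like cells at 511.65, with Rgs7bp next at 9.34. In alveolar and adventitial fibroblast-like cells Rgs10 came after Rgs2, at 9.30 and 11.5 CPM per kb.

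Within the mural classes the members differed by cluster. Vascular SMC-like cells fell into a cluster led by Arhgef16 (60.2% of the class), a cluster led by Efhd1 (34.2% of the class) and a cluster led by Pidd1 (28 cells, all from female mouse 1). Rgs2 was at 637.01, 736 and 275.9 CPM in the Arhgef16 cluster and at 262.1, 324.8 and 61.3 CPM in the Efhd1 cluster. Rgs6 was at 71.2, 43.3 and 29.9 CPM against 16.05, 8.77 and 0.538 CPM, and Rgs7bp at 146.1, 115.6 and 240.3 CPM against 70.9, 58.6 and 73.7 CPM. All 3 members thus had the larger value in the Arhgef16 cluster in each mouse. Rgs4 had no common direction, with 96.5, 288.9 and 245.1 CPM against 189.1, 297.9 and 73.3 CPM.

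Pericyte-like cells fell into a cluster led by Bbox1 (28 cells) and a cluster whose leading genes include Clstn2 (44 cells). Rgs5 was at 132.4, 782 and 59.6 CPM in the Bbox1 cluster and at 0, 1.93 and 4.16 CPM in the Clstn2 cluster. Rgs7bp was at 222.8, 130.4 and 150.6 CPM against 1.23, 0.967 and 17.8 CPM, and Rgs2 at 696, 199.96 and 161.2 CPM against 17.3, 155.8 and 8.50 CPM. Rgs4 was present in both, at 76.6, 654 and 63.6 CPM against 476.6, 686 and 267.2 CPM, and had the larger value in the Clstn2 cluster in each mouse. The Clstn2 cluster held 5, 7 and 32 cells of the 3 mice and the Bbox1 cluster 11, 5 and 12. The class sums of Rgs5 and Rgs7bp thus depend on the mix of the 2 clusters, as do those of Rgs2 in male mouse 1 and female mouse 1. Under an alternative naming rule the pericyte-like class also held 5, 7 and 32 cells, the numbers of the Clstn2 cluster, where Rgs5 was low. The high Rgs5 and Rgs7bp levels of the pericyte-like class thus hang on how the Bbox1 cluster is named. These are descriptions with no test, since the clusters were found in the same cells.

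**Figure D4:**
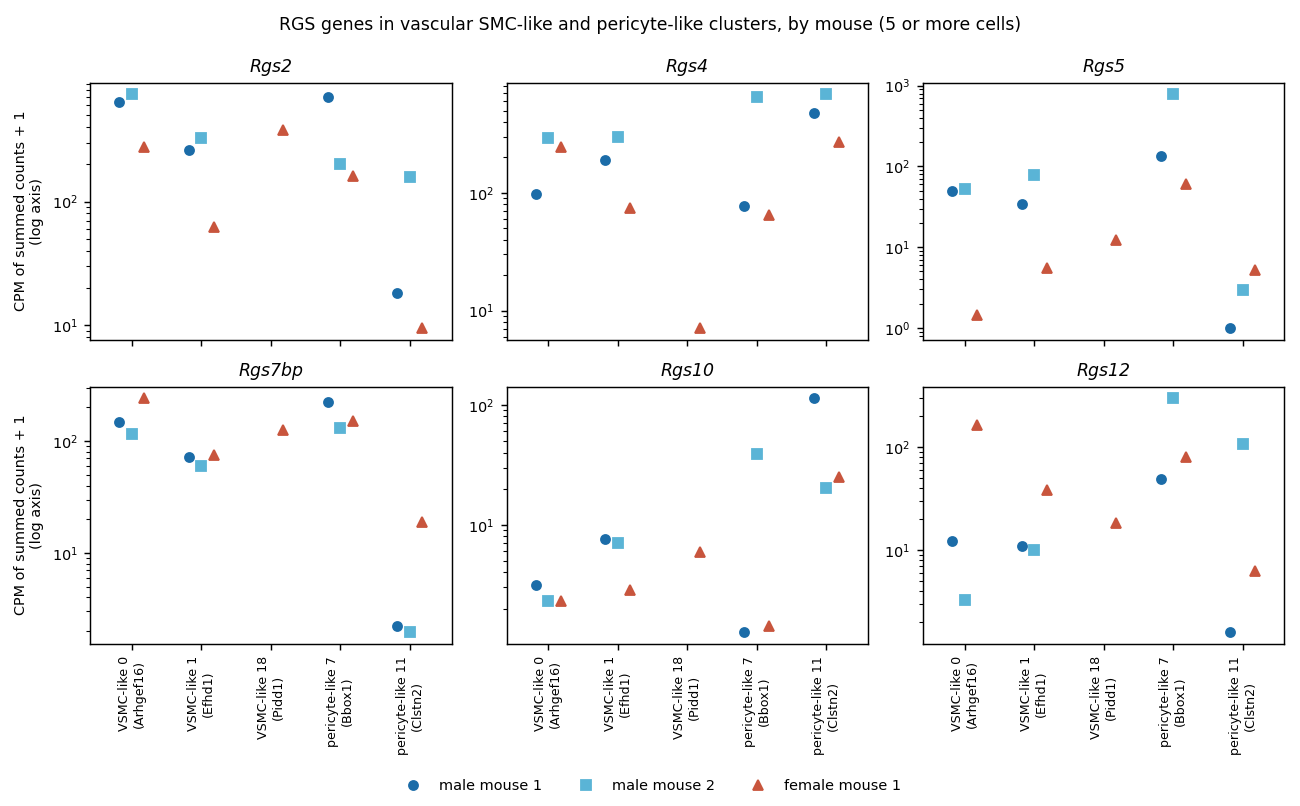
Level of 6 members (CPM + 1, log axis, 1 point per mouse with at least 5 cells) in the vascular SMC-like clusters led by Arhgef16, Efhd1 and Pidd1 and the pericyte-like clusters marked by Bbox1 and Clstn2. Rgs5 was at 59.6 CPM or more in every mouse of the Bbox1 cluster and at 4.16 CPM or less in the Clstn2 cluster.

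RGS proteins act behind G protein-coupled receptors. Of 45 listed Gq- and Gi-coupled receptors 32 could be tested, and 23 were called for any difference among the 6 classes, beside 13% of all genes. Lpar1, a receptor for lysophosphatidic acid, was at 577.7, 538.6 and 283.6 CPM in airway SMC-like and 529.7, 619.8 and 415.3 CPM in alveolar myofibroblast-like cells, against 0.772, 2.07 and 1.72 CPM in pericyte-like cells. Chrm2, the M2 muscarinic receptor of airway muscle, was at 687, 1235 and 213.1 CPM in airway SMC-like cells and under 1 CPM in pericyte-like cells. F2r, the thrombin receptor, was at 1077, 1746 and 2105 CPM in pericyte-like cells against 156.5, 216.8 and 262.2 CPM in vascular SMC-like cells (difference 2.98 ± 0.33, adjusted p = 0.000103, edgeR).

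Ednrb, an endothelin receptor, was at 1518, 1946 and 1119 CPM in airway SMC-like cells and at 6.17, 5.39 and 7.15 CPM in pericyte-like cells. P2ry14, a Gi-coupled receptor for UDP-sugars, was at 1152, 1243 and 725 CPM in alveolar myofibroblast-like cells against 8.60, 19.9 and 23.4 CPM in alveolar fibroblast-like cells. P2ry6, a Gq-coupled receptor for UDP, was at 89.6, 54.4 and 129.3 CPM in vascular SMC-like cells and under 1 CPM in every airway SMC-like and alveolar myofibroblast-like sum. For airway SMC-like against pericyte-like cells 6 receptors were higher and 6 lower. The receptor list had a median log2 difference of −0.03 there, beside 0.07 over all genes, and the 9 members had one of −3.14. That last median does not describe a called shift, since Rgs2 was the only member edgeR called there and it was higher. In pericyte-like cells 5 cells held 92.5% of the Rgs5 counts and 90.7% of the Rgs12 counts.

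Of 16 listed G protein alpha subunits 12 could be tested, and edgeR called 0 in any comparison, beside 13% of all genes for any difference. For any difference among classes 3 of the alpha subunits had an unadjusted p under 0.05 and DESeq2 called 3. Of the beta and gamma subunits 3 of 14 tested were called for any difference (Gng11, Gng12 and Gng4), beside the same 13%. Gng11 was at 237.3, 300.3 and 158.7 CPM in pericyte-like cells and at 39.96, 50.2 and 45.4 CPM in airway SMC-like cells (difference −2.25 ± 0.42 for airway against pericyte-like, adjusted p = 0.00432, edgeR). Gng12 went the other way (2.00 ± 0.32, adjusted p = 0.00164).

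Of 19 tested effectors 3 were called for any difference, among them Trpc6 and Plcb4, beside 13% of all genes. Trpc6, a cation channel opened downstream of Gq, was at 660, 873 and 616.02 CPM in pericyte-like cells and at 6.59 CPM or less in every other sum. Plcb4, a phospholipase C that Gq activates, was at 548.9, 592.1 and 194.01 CPM in vascular SMC-like cells against 4.63, 67.1 and 14.03 CPM in pericyte-like cells (difference −4.41 ± 0.96 for pericyte-like against vascular, adjusted p = 0.0157, edgeR). Of 8 tested receptor kinases and arrestin-type genes 2 were called for any difference, namely Arrdc3 and Grk5, beside 13% of all genes. Grk5, a kinase that silences active receptors, was at 195.8, 119.3 and 186.5 CPM in pericyte-like cells against 29.8, 14.9 and 13.8 CPM in vascular SMC-like cells.

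Of the 9 N-degron pathway genes edgeR called 0 in any comparison, with 2 at an unadjusted p under 0.05 for any difference among classes and 1 called by DESeq2. Of 13 other G protein modulators 1 was called for any difference (Gpsm2). Of 15 other RGS genes and R7 partners 7 could be tested, and 1 was called for any difference (Rgs17, adjusted p = 0.0197, edgeR). Over all genes 13% were called for any difference, so none of these counts sets its list apart. Rgs17 was at 6.62, 4.12 and 0.277 CPM in vascular SMC-like and 2.89, 7.46 and 7.01 CPM in pericyte-like cells, the latter from 5 cells. Alveolar fibroblast-like cells had 3.36, 2.90 and 3.75 CPM, so the gene was not confined to the mural classes. Others that reached 10 CPM over all cells of some class, also of classes that were not compared, were Rgs1 (up to 510 CPM), Rgs19 (125.03), Rgs18 (108.85), Rgs9 (53.4), Gnb5 (48.8) and Rgs14 (26.2). Within the 6 compared classes the highest level was 35.2 CPM for Rgs1, 38.5 for Rgs19, 0.0563 for Rgs18 and 0.0442 for Rgs14. The 9 members thus do not hold every RGS gene of these cells.

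Rgs2 is also known as an early response gene, and early response and heat shock genes, which cell dissociation can induce, differed between several of the same classes. Of 25 such genes 15 were called higher in airway SMC-like than pericyte-like cells, 6 were called higher in airway than vascular SMC-like cells and 3 in alveolar myofibroblast-like than vascular SMC-like cells. Over all genes 6.23%, 1.9% and 3.72% were called in these comparisons, in either direction. Between alveolar myofibroblast-like and alveolar fibroblast-like cells, where Rgs2 was called, edgeR called 0 of the 25, beside 2.21% of all genes. Of the 25 early response and heat shock genes, 5 had an unadjusted p under 0.05 there and DESeq2 called 0. Their summed level was 36603, 28540 and 31706 CPM in airway SMC-like cells, 24368, 22171 and 17995 CPM in alveolar myofibroblast-like cells, 20911, 17862 and 15348 CPM in vascular SMC-like cells and 17027, 4793 and 8255 CPM in pericyte-like cells. Junb was at 3393, 2707 and 3627 CPM in airway SMC-like cells against 1309, 667.5 and 1238 CPM in vascular SMC-like cells, and Nr4a2 at 771.5, 515.1 and 527.6 CPM against 97.5, 31.6 and 14.9 CPM. Across cells of 1 class and 1 mouse the Spearman correlation of Rgs2 with the summed level lay between −0.36 and 0.36. The part of dissociation in the Rgs2 values was not tested.

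The genes of the whole table most like each member were sought among 14361 genes with at least 10 CPM in any of the 18 sums, by the Pearson r of log2(CPM + 1). These sums share mice and depth, so r is a description. For Rgs2 they included Gja1 (0.885) and Crem (0.859), and for Rgs4 they were Tinagl1 (0.903), Cobll1 (0.879) and Ppp1r14a (0.851). For Rgs5 they were Prkacb (0.869), Rc3h2 (0.851) and Gm27694 (0.816), for Rgs6 Slc38a4 (0.896), Mapre2 (0.825) and Carmn (0.823), and for Rgs7bp Tgfb2 (0.865), Crip1 (0.781) and Nsdhl (0.780). The first-ranked genes of the other members were Sike1 for Rgs3 (0.854), Lamb1 for Rgs10 (0.879), Ripor1 for Rgs12 (0.882) and Elovl6 for Rgs16 (0.897). Between members the values were lower, with 0.629 for Rgs5 and Rgs6 and −0.585 for Rgs2 and Rgs10.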

How the data were processed

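Single lung cells of 3 mice were measured by Smart-Seq2, and the deposited table gives read counts per gene and cell, 1 cell per sample. Per the submitters' processing notes, the authors used bcl2fastq, Bowtie, Bowtie2, featureCounts and Subread with GRCm38 (mm10). Versions, settings and the use of strand in counting were not given in the sources used here. Full-length reads scale with transcript length and have no molecular identifiers. No cell was removed and no doublet caller was run, since 1 cell was sorted per well.

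Genes were split at random into 2 parts (seed 1). Cells were clustered on the part without the members, leaving out 182 member and list genes: 1000 variable genes, totals scaled to 10000, 30 principal components, 15 neighbours and Leiden resolution 1 (scikit-learn 1.9.0, leidenalg 0.10.2). A cluster was named by its mean marker score, with at least 3 markers in 25% of its cells, a score of 0.1 and a margin of 0.25. These clustering and naming settings were chosen after seeing clusters, markers and class sizes, before any member's level by class had been read. Of 983 cells named in the clusterings on both parts, 98% had the same name. Each gene was tested between the classes of the clustering that did not use its part. The adjustment and the shares over all genes thus join 2 sets of classes, with 503 and 382 vascular SMC-like cells. Values of the members come from the first set.

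The sums of counts over the cells of a class in a mouse were tested. Classes with at least 10 cells in each mouse were compared with edgeR 4.0.16 (R 4.3.3): TMM factors, filterByExpr, a quasi-likelihood fit of class and mouse over 6 classes, and Benjamini-Hochberg adjustment over 16035 genes. DESeq2 1.42.0 was an alternative. The mouse is the replicate, and it pairs the classes because each mouse gave cells of every class. Levels are CPM of the sums, without TMM factors. In data simulated for airway against vascular SMC-like cells over 15382 genes, 56% of 8-fold and 0% of 2-fold changes were called among genes at 50 CPM or more, and 4% of 8-fold changes below it, with 0 unchanged genes called.

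The 9 members, the gene lists and the tests were chosen with earlier results of these data known. All 9 members are named in the text. From each other list a comparison names at most 3 called genes, those with the smallest adjusted p. RefSeq promoters were used, and protein sequences were not analysed here. Some genes that the rule would name are not reported here.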

Additional observations from a re-analysis of the deposited data

Results flagged for a closer look

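In cell classes that entered no comparison, 3 members had levels above every compared class. Rgs3 was at 364.5 CPM over the 66 endothelial-like cells (4440 counts), against 58.4 CPM in the highest compared class. Rgs12 was at 465.4 CPM in the same cells (5670 counts), against 59.4 CPM. Rgs10 was at 411.6 CPM over the 63 macrophage-like cells (6360 counts), against 25.3 CPM. Since 65 of the endothelial-like cells came from female mouse 1 and 59 of the macrophage-like cells from male mouse 1, none of these differences was tested.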

How the results depend on the processing

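With 3 mice, and 12 cells of a class in some, most calls of members rested on all mice. Leaving out 1 mouse gave 0 to 0 members called for airway against vascular SMC-like cells (1 with all mice) and for alveolar myofibroblast-like against alveolar fibroblast-like cells (3), 0 to 1 for alveolar myofibroblast-like against vascular SMC-like cells (2) and for pericyte-like against alveolar fibroblast-like cells (3), 2 to 4 for any difference (4) and 1 to 1 for airway SMC-like against pericyte-like cells (1). Without the replicate block, which ignores the pairing by mouse, these counts were 0 for airway against vascular SMC-like cells, 1 (Rgs4) for alveolar myofibroblast-like against alveolar fibroblast-like cells and 1 (Rgs4) for alveolar myofibroblast-like against vascular SMC-like cells. The block changed no other count of called members by over 1.5 times.

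DESeq2 called 4 members for airway SMC-like against pericyte-like cells and 2 for airway against vascular SMC-like cells. Thinned cells gave 3 and 2 there, and 1 (Rgs2) for pericyte-like against vascular SMC-like cells. Clustering without the gene split gave 2 for airway SMC-like against pericyte-like cells, a fit of the 2 classes alone gave 1 (Rgs2) for alveolar myofibroblast-like against alveolar fibroblast-like cells, and resolution 2 gave 1 (Rgs5) for pericyte-like against alveolar fibroblast-like cells. RLE factors and no filter on low counts left all 7 counts as they were. Removal of shallow cells left 5 as they were and gave 2 in place of 3 for pericyte-like against alveolar fibroblast-like cells (Rgs4 lost) and for alveolar myofibroblast-like against alveolar fibroblast-like cells (Rgs6 lost). A naming rule added after seeing the data left 4 counts as they were and could not be run for pericyte-like cells. Of the 10 calls of members in single comparisons, none changed sign under an alternative. The cause of these changes was not tested.

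Over all genes DESeq2, run without the filter, called 981, 1913 and 1442 genes for airway SMC-like, pericyte-like and alveolar myofibroblast-like against vascular SMC-like cells, 2468 for airway SMC-like against pericyte-like cells, 2071 and 1119 for pericyte-like and alveolar myofibroblast-like against alveolar fibroblast-like cells and 3675 for any difference. The edgeR shares given with the members were 1.9%, 4.52%, 3.72%, 6.23%, 5.69%, 2.21% and 13% of 16035 genes in this order. Leaving out 1 mouse gave 0.478% to 0.734%, 1.46% to 1.68%, 1.06% to 1.42%, 2.45% to 2.48%, 1.95% to 2.66%, 0.563% to 0.793% and 4.66% to 5.42% of genes. A fit of 2 classes gave 2.58% for pericyte-like against vascular SMC-like, 2.18% for airway SMC-like against pericyte-like and 2.8% for pericyte-like against alveolar fibroblast-like cells. Resolution 2 gave 0.812% for airway and 2.92% for pericyte-like against vascular SMC-like cells. With RLE factors the median log2 difference over all genes went from −0.25 to −0.08 for pericyte-like against vascular SMC-like cells and from −0.20 to −0.07 for pericyte-like against alveolar fibroblast-like cells.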

Other observations

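Among the unnamed cells, a cluster of 24 cells led by Adora1 and Col8a1, 22 of them from female mouse 1, had Rgs2 at 265.02 CPM, Rgs5 at 129.4 CPM and Rgs7bp at 236.5 CPM, with Rgs2 in all 24 cells. A cluster of 21 cells led by Catsper3, 19 of them from male mouse 1, had Rgs2 at 738 CPM, Rgs5 at 206.03 CPM in 3 cells and Rgs7bp at 351.2 CPM in 8 cells. Each cluster came mostly from 1 mouse, so cluster and mouse cannot be told apart.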
